A study of Mus musculus with 9 samples.

Results

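Cells answer misfolded protein in the endoplasmic reticulum (ER) and shortage of amino acids with linked transcriptional programmes. In the unfolded protein response, the ER sensors IRE1, PERK and ATF6 signal to the nucleus; IRE1 removes an intron from Xbp1 mRNA, and the resulting XBP1 protein, together with ATF6, drives genes of ER folding and ER-associated degradation. In the integrated stress response, PERK, GCN2, PKR and HRI phosphorylate eIF2α, which favours translation of ATF4, and ATF4 drives genes of amino acid supply together with Ddit3, whose product CHOP acts with it. XBP1 is also known as a factor that plasma cells need, and the response as a whole has been studied in tumour-associated myeloid cells.

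Of the 23284 gene symbols measured, 10 genes of these programmes were followed in myeloid-derived suppressor cells (MDSCs), immature myeloid cells that expand in tumour-bearing hosts. They were chosen by symbol: the ER chaperone gene Hspa5, the transcription factor genes Xbp1, Atf4 and Ddit3, the IRE1-XBP1 target Dnajb9, the ER degradation genes Herpud1 and Sel1l, and the ATF4 and CHOP targets Trib3, Chac1 and Asns. All 10 were present under these symbols, and all 10 reached 1 FPKM in 3 or more of the 6 samples of each comparison and so entered both fits.

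RNA-sequencing values were available for 9 samples in 3 groups of 3, all from spleens of mice carrying subcutaneous spindle cell tumours (SCT) for 3 weeks: polymorphonuclear (PMN) MDSCs from wild-type (WT) C57BL/6J mice, monocytic (Mo) MDSCs from WT C57BL/6J mice, and Mo-MDSCs from p16/p21 double-knockout (p16/p21-DKO) mice, labelled C57BL/6. The SCT cells in every group were made from a carcinogen-treated p16 KO mouse, and every group came from a tumour-bearing host, so no sample shows these genes without a tumour. The labels give an age of 3 weeks, while the study's methods describe inoculation of adult mice. PMN-MDSCs were taken as Ly6G+ cells and Mo-MDSCs as Ly6G- Gr-1+ cells with magnetic separation in the cold. The labels do not say whether replicates were separate mice, so that p-values measure the spread between samples, which may be technical.

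FPKM is the number of fragments scaled to transcript length and to the library, which allows levels of different genes to be set side by side; the depth in reads is unknown. Total FPKM lay between 711675 and 916642 in PMN-MDSCs, between 549976 and 618250 in WT Mo-MDSCs and between 494252 and 534354 in p16/p21-DKO Mo-MDSCs, and 7 granulocyte genes led by those of S100 proteins summed to 95517 to 213759 FPKM in PMN-MDSCs against 13651 to 48114 and 5196 to 13103 in the other groups. The 7 monocyte markers summed to 935 to 989 FPKM in PMN-MDSCs, 2048 to 2323 in WT and 1665 to 1818 in p16/p21-DKO Mo-MDSCs. Other cells were also represented: 8 B-cell and plasma-cell markers summed to between 1835 and 4349 FPKM over the 9 samples, 5 red-pulp macrophage markers to between 3049 and 5830 and 5 erythroid markers to between 1219 and 2899, whereas 5 T and NK cell markers did not sum to more than 10.2 FPKM. Cdkn1a, which encodes p21, did not separate the genotypes, with 8.18, 6.46 and 8.04 FPKM in WT and 5.55, 8.52 and 6.00 FPKM in p16/p21-DKO Mo-MDSCs, and Cdkn2a stayed under 1 FPKM in both groups. Gene-level FPKM therefore does not check the genotype labels, and directions below refer to libraries as labelled.

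Promoter sequence is shown for the members that held a textbook element of these pathways, searched on both strands in the 300 bases around each RefSeq start (250 before, 50 after; assembly GRCm38.p6). All 10 members matched a promoter in this table. The ER stress response element (ERSE), read by ATF6 and NF-Y, was searched as CCAAT followed by 9 bases and CCACG, the related ERSE-II as ATTGG, 1 base and CCACG, the C/EBP-ATF composite site read by ATF4 and CHOP as TTNCATCA, and the unfolded protein response element as TGACGTGG. Capitals mark the matched letters, and positions are counted from the RefSeq start. Among the members no match overlapped another.
Hspa5 ERSE, chr2:34772020-34772048, plus strand: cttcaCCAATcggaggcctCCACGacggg
Herpud1 ERSE-II, chr8:94386368-94386396, plus strand: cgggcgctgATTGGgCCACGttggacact
Herpud1 C/EBP-ATF, chr8:94386306-94386335, plus strand: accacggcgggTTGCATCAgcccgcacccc
Chac1 C/EBP-ATF, chr2:119351038-119351067, plus strand: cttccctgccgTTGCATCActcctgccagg
Trib3 C/EBP-ATF, chr2:152344028-152344057, minus strand: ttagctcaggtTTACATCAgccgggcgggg
Asns C/EBP-ATF on the opposite strand, chr6:7693214-7693243, minus strand: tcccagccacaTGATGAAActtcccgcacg

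ERSE was found in 0.119% of 32851 RefSeq promoters and among the members only in Hspa5, from -65 to -47. ERSE-II was found in 0.0365% of promoters and among the members only in Herpud1, from -52 to -42. The C/EBP-ATF letters were more common, in 3.97% of promoters, and 4 members held them: Chac1 from -193 to -186, Herpud1 from -112 to -105, Asns from -23 to -16 and Trib3 from 15 to 22. TGACGTGG, in 0.676% of promoters, matched no member. Ddit3, Atf4, Xbp1, Dnajb9 and Sel1l held none of the 4 motifs as spelled here.

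In the tumour-bearing spleen, WT Mo-MDSCs held far less mRNA of Chac1 and Ddit3 than PMN-MDSCs. Hspa5 was slightly lower on the deposited scale, but its sign turned with equal total FPKM or quantile normalization. Chac1 was 7.54-fold lower, Ddit3 3.09-fold lower and Hspa5 1.23-fold lower, on the scale of log2(FPKM + 0.1). These were the 3 of 10 members that passed the test (limma, Benjamini-Hochberg adjusted p below 0.05 over 11491 genes), and all 3 were lower. Across all genes 39.1% passed the same test and 20.6% passed as lower, so 3 of 10 does not set the members apart from other genes. Fewer cells of a type and less RNA per cell cannot be told apart in these bulk samples.

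**Figure D1:**
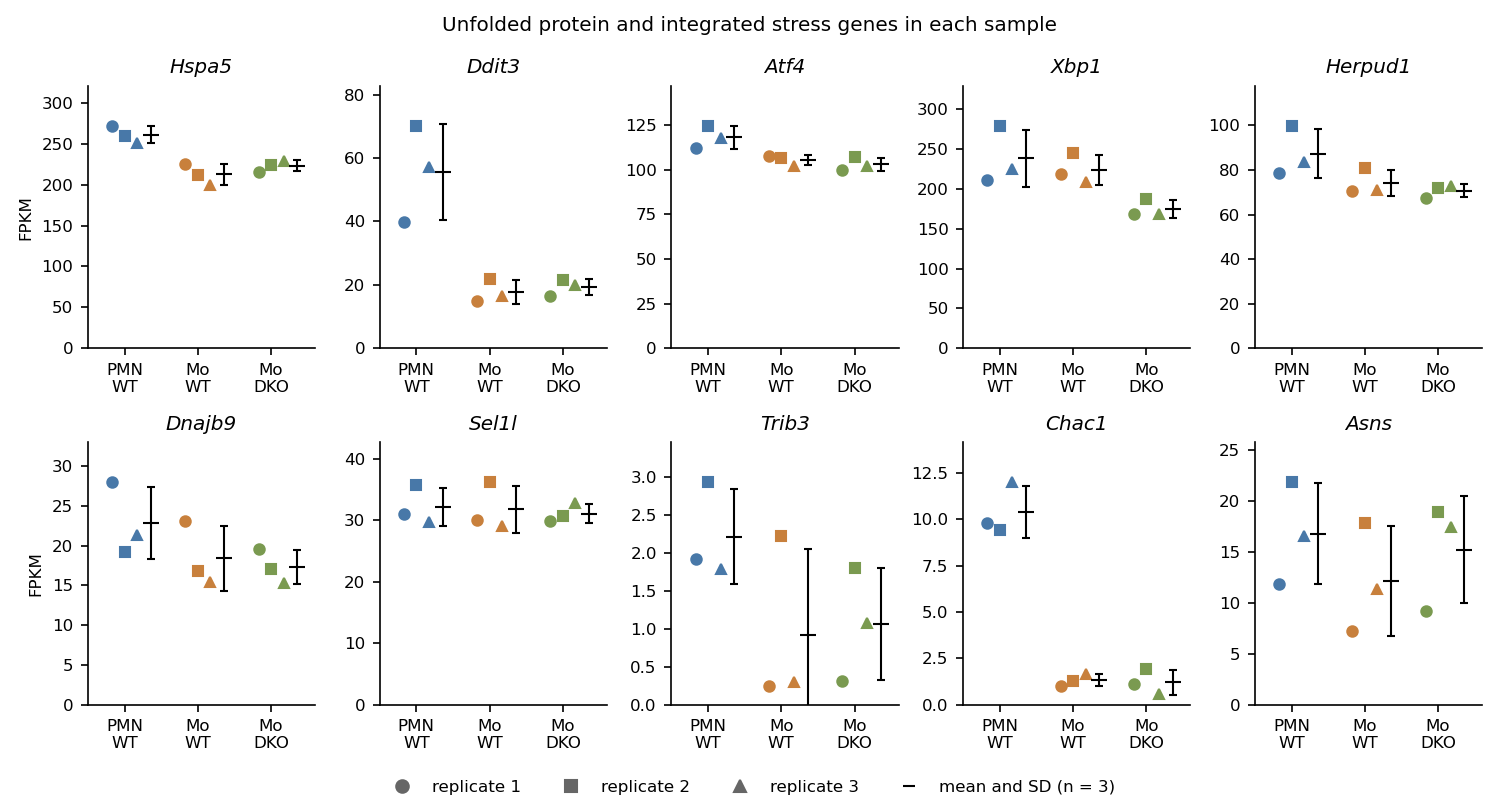
FPKM of each member (vertical axes from 0) in the 9 samples, grouped as PMN-MDSCs of WT mice, Mo-MDSCs of WT mice and Mo-MDSCs of p16/p21-DKO mice, with symbols for replicates 1 to 3 and black bars for the mean and SD (n = 3). Chac1 and Ddit3 stand apart in PMN-MDSCs, Xbp1 is lowest in p16/p21-DKO Mo-MDSCs, and the bar of Trib3 in WT Mo-MDSCs runs below the axis.

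Chac1 encodes a glutathione-degrading enzyme that ATF4 and CHOP induce. Its level was 9.79, 9.42 and 12.0 FPKM in PMN-MDSC replicates 1 to 3, against 1.02, 1.25 and 1.66 FPKM in WT Mo-MDSCs. Every PMN-MDSC sample lay above every Mo-MDSC sample. The log2 difference was -2.92 ± 0.19 (SE; limma adjusted p = 5.45e-05). The p16/p21-DKO Mo-MDSCs, at 1.10, 1.91 and 0.56 FPKM, lay on both sides of the WT Mo-MDSCs.

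Ddit3 encodes CHOP, the transcription factor linked to prolonged ER stress. PMN-MDSCs had 39.9, 70.1 and 57.1 FPKM of Ddit3, and WT Mo-MDSCs had 14.9, 21.97 and 16.4 FPKM. The groups did not overlap, although the SD in PMN-MDSCs was 15.2 FPKM around a mean of 55.7 (n = 3). The log2 difference was -1.63 ± 0.23 (SE; limma adjusted p = 0.00158). GENCODE M21 gives the symbol Ddit3 to 2 genes on the plus strand of chromosome 10, the longer at chr10:127290774-127296288. On the other strand, Mars overlaps part of the longer gene but not the shorter one at chr10:127290829-127293753. The library kit was stranded, but the strand setting of the counting is not given in the sources used here.

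Hspa5 encodes BiP, the main ER chaperone of the HSP70 family, and is the only member with an ERSE in the promoter shown above. It was among the most abundant members, at 272, 259 and 251 FPKM in PMN-MDSCs and 226, 212 and 200 FPKM in WT Mo-MDSCs. Groups were narrow and separate, and the log2 difference of -0.30 ± 0.08 (SE) passed the test (limma adjusted p = 0.0241). The direction of Hspa5 depended on scaling: with every sample brought to the same total FPKM (TPM) the difference was 0.15, and with quantile normalization also 0.15, neither called. The call was also lost without PMN-MDSC replicate 1 (adjusted p = 0.0672) or 2 (0.0589), and without WT Mo-MDSC replicate 2 (0.0696) or 3 (0.0945) in the same limma test.

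Scaling to equal totals raised the median log2 difference of all genes by 0.44, from 0.01, and the share of called genes that were lower went from 52.8% to 14.1%. The signs of 6 members turned with it. Ddit3 (-1.18) and Chac1 (-2.49) were called lower after that scaling and lower in every other alternative run. Trib3 and Asns kept their negative sign under the scalings tried, whereas Hspa5, Atf4, Xbp1, Herpud1, Dnajb9 and Sel1l turned positive under TPM. Quantile normalization turned the same genes except Dnajb9.

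**Figure D2:**
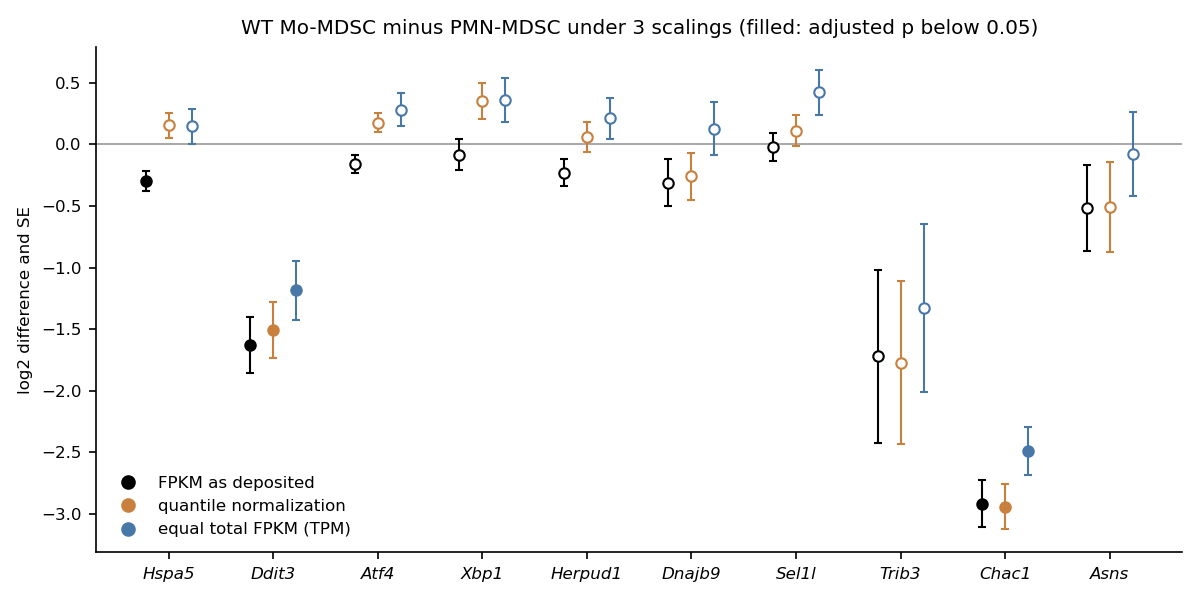
Log2 difference between WT Mo-MDSCs and PMN-MDSCs with its SE (vertical axis) for each member on 3 scales: FPKM as deposited, quantile normalized and brought to equal totals; filled points have adjusted p below 0.05. Ddit3 and Chac1 are far below 0 on each scale, and Hspa5 moves from -0.30 to 0.15.

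Same-numbered samples of WT Mo-MDSCs and PMN-MDSCs deviated together. The labels do not say whether they share mice, and the block was used because each same-number correlation in these data exceeded 0.1. A fit that took replicate numbers as blocks called 8 of 10 members, all lower, where 29.7% of all genes were called lower and 57.3% in either direction. Under the block, adjusted p from limma was 0.00227 for Hspa5, 3.02e-05 for Ddit3 and 1.47e-05 for Chac1. The 5 members gained were Asns (0.00447), Herpud1 (0.00901), Dnajb9 (0.0101), Trib3 (0.0170) and Atf4 (0.0382). Xbp1 (0.271) and Sel1l (0.746) remained uncalled. With the block and equal totals together 7 members were called, of which Atf4, Xbp1, Herpud1 and Sel1l were higher and Ddit3, Trib3 and Chac1 lower. That fit called 9004 of all 11491 genes in either direction, so 7 of 10 does not set the members apart from other genes.

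Atf4, the central factor of the integrated stress response, was measured at 112, 124 and 118 FPKM in PMN-MDSCs and 108, 107 and 102 FPKM in WT Mo-MDSCs. The groups did not overlap, but the log2 difference of -0.16 ± 0.07 (SE) was not called without the block (limma adjusted p = 0.118). With Hspa5, Ddit3 and Chac1, Atf4 made 4 members of 10 whose groups did not overlap, each lower in WT Mo-MDSCs with an exact permutation p of 0.1, the smallest that 3 against 3 samples can give. Among all genes tested 52.5% did not overlap. ATF4 is controlled largely through translation, which mRNA levels do not show.

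Trib3 encodes a pseudokinase induced by ATF4 and CHOP. Its level was low throughout, with 0.25, 2.22 and 0.30 FPKM in WT Mo-MDSCs against 1.92, 2.92 and 1.78 FPKM in PMN-MDSCs. WT Mo-MDSC replicate 2 alone made the groups overlap. The log2 difference was -1.72 ± 0.70 (SE; limma adjusted p = 0.0943) with all samples and -2.60 without that replicate (limma adjusted p = 0.00172).

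Asns encodes asparagine synthetase, a classical target of ATF4. Its level was 11.9, 21.8 and 16.6 FPKM in PMN-MDSCs and 7.19, 17.9 and 11.3 FPKM in WT Mo-MDSCs. Each WT Mo-MDSC sample was below the PMN-MDSC sample of the same number, while the groups overlapped. Without the block the log2 difference was -0.52 ± 0.35 (SE; limma adjusted p = 0.278).

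The ER degradation and cochaperone members were not called without the block. Herpud1, which helps to recruit the degradation complex, ranged from 78.7 to 99.8 FPKM in PMN-MDSCs and from 70.8 to 80.9 FPKM in WT Mo-MDSCs, and it overlaps an annotated antisense gene, Gm15890. Dnajb9, a cochaperone of BiP, ranged from 19.3 to 28.0 and from 15.4 to 23.1 FPKM. Sel1l, the scaffold of the HRD1 ubiquitin ligase, ranged from 29.8 to 35.7 and from 29.1 to 36.2 FPKM. The log2 differences of these 3 genes were -0.23, -0.31 and -0.02. Their adjusted p in limma without the block was 0.136, 0.235 and 0.909.

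Xbp1 was as abundant as Hspa5 in PMN-MDSCs within the spread and did not differ detectably between the WT subsets. PMN-MDSCs had 211, 279 and 226 FPKM and WT Mo-MDSCs 218, 245 and 209 FPKM, fully interleaved. The log2 difference was -0.08, with a 95% interval from -0.37 to 0.21 (limma adjusted p = 0.628). Gene-level FPKM adds the spliced and unspliced forms of Xbp1 together, so IRE1 activity was not measured.

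In the second comparison, of genotype within Mo-MDSCs, Xbp1 was the only member whose groups did not overlap. It was measured at 218, 245 and 209 FPKM in WT and 169, 188 and 169 FPKM in libraries labelled p16/p21-DKO. The log2 difference was -0.36 ± 0.10 (SE), with a 95% interval from -0.58 to -0.13, an unadjusted p of 0.00619 and an adjusted p of 0.194 in limma, so that Xbp1 did not pass. The exact permutation p was 0.1, the smallest possible. Adjusted p stayed between 0.157 and 0.524 over all alternatives, and the difference was -0.20 with equal totals.

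None of the 10 members was called between genotypes in limma, and 1 member, Xbp1, had an unadjusted p below 0.05. Among all 11451 genes tested 0.253% were called (29 genes) and 20.8% had groups that did not overlap, while 1719 genes had an unadjusted p below 0.05. For the abundant members the intervals were narrow: the log2 difference was 0.07 for Hspa5 (95% interval -0.12 to 0.27), -0.03 for Atf4 (-0.21 to 0.14), -0.07 for Herpud1 (-0.27 to 0.13) and -0.03 for Sel1l (-0.27 to 0.22). Wider ones were found for Ddit3 at 0.14 (-0.24 to 0.51), Dnajb9 at -0.08 (-0.46 to 0.30) and Asns at 0.35 (-0.51 to 1.20). The widest were those of Chac1 (-0.25, from -1.21 to 0.72) and Trib3 (0.51, from -1.43 to 2.44), and for these genes and Asns the interval reached beyond a 2-fold change. Signs of Atf4, Herpud1, Dnajb9 and Sel1l turned positive with equal totals, which raised the median of all genes by 0.15.

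**Figure D3:**
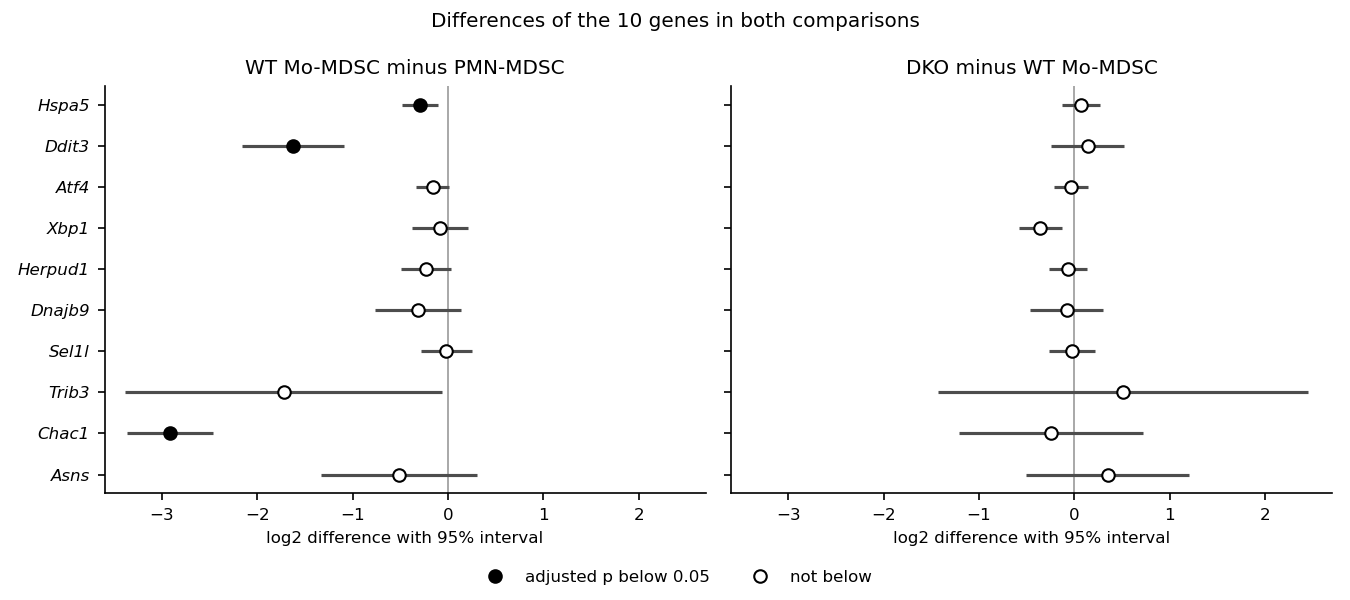
Log2 difference with its 95% interval (horizontal axes) for each member in WT Mo-MDSCs minus PMN-MDSCs and in p16/p21-DKO minus WT Mo-MDSCs; filled points have adjusted p below 0.05. Chac1, Ddit3 and Hspa5 are filled on the left, no point is filled on the right, and the interval of Xbp1 on the right ends below 0. Both panels share the WT Mo-MDSC samples.

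In both Mo-MDSC groups the members had the same broad order of level. Hspa5 and Xbp1 lay between 169 and 245 FPKM, Atf4 and Herpud1 between 67.4 and 108 FPKM, and Sel1l, Ddit3, Dnajb9 and Asns between 7.19 and 36.2 FPKM. Chac1 and Trib3 were lowest, from 0.25 to 2.22 FPKM. In PMN-MDSCs Ddit3 (55.7 FPKM on average) was above Sel1l (32.2 FPKM), with all 3 samples higher than any Sel1l value, whereas in Mo-MDSCs Ddit3 was below Sel1l.

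On the deposited scale every list except ER-associated degradation held calls in both directions between the subsets, and with equal totals most calls were higher. Lists of known pathway genes were counted in the same fit, without a test of the list, and lists can share genes with the members. Of 15 core genes of the integrated stress response, 4 were higher and 2 lower in WT Mo-MDSCs, with a median log2 difference of -0.06 against 0.01 for all genes; with the replicate block 6 were higher and 6 lower, and with equal totals 8 were higher and 2 lower (median 0.38). The share of all genes called, 39.1%, is near the 6 of 15 here and above those of the ATF4 target, IRE1-XBP1, chaperone and degradation lists. Under the block 57.3% of all genes were called. With equal totals 6780 of 11491 genes were called, and 14.1% of these were lower. Nupr1, a stress-induced chromatin protein, was 15.2-fold higher, from 3.49 to 5.32 FPKM in PMN-MDSCs to between 59.8 and 81.0 FPKM in WT Mo-MDSCs. The kinase genes of the response diverged: Eif2ak2 (PKR) rose by 0.56 and Eif2ak4 (GCN2) by 0.42 on the log2 scale, whereas Eif2ak3 (PERK) fell by 0.80. Eif2ak4 was not called with replicates 1 and 3 only.

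Among 30 tested of 36 ATF4 target genes, 4 were higher and 4 lower, with a median of -0.02, and with the block 8 were higher and 7 lower; with equal totals 13 were higher and 3 lower (median 0.42). The lowest were Slc7a11, Chac1 and Sesn2. Slc7a11, the cystine transporter, was at 7.11, 4.88 and 5.64 FPKM in PMN-MDSCs and 0.38, 0.24 and 0.37 FPKM in WT Mo-MDSCs, a log2 difference of -3.80 ± 0.23 (SE; limma adjusted p = 3.94e-05). Among the 6 samples of this comparison, Slc7a11 reached 1 FPKM only in PMN-MDSCs. It passed the filter through those samples alone, so its direction follows in part from the filter. Sesn2, an ATF4-induced regulator of mTORC1, was 2.97-fold lower. Sesn2 was lower and called under each of the 3 rescalings. Slc7a11 was too, but rescaling does not remove the part of the filter in its direction. The highest were the glutamine transporter gene Slc1a5 (log2 difference 0.60), the tRNA exporter gene Xpot (0.39) and the threonyl-tRNA synthetase gene Tars (0.33).

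Genes of the IRE1-XBP1 branch and ER chaperones held calls in both directions as deposited and under the block, but only higher ones with equal totals (17 and 11 genes) and with quantile normalization (7 and 7 genes). Of 24 tested IRE1-XBP1 genes, 4 were higher and 1 lower, with a median of 0.08 and with 7 higher and 4 lower under the block. Ern1, which encodes IRE1 itself, was 1.88-fold higher, at 19.9 to 21.4 FPKM against 9.62 to 11.8 FPKM. Ssr3 (0.44) and Kdelr2 (0.25), of ER translocation and retrieval, were also higher. Spcs1, of the signal peptidase, was lower (-0.26) but turned positive under TPM and quantile normalization. Neither Kdelr2 nor Spcs1 was called with replicates 1 and 3 only. Of 21 ER chaperone genes, 4 were higher and 1, Hspa5, lower, with 6 higher and 4 lower under the block. Atf6, the gene of the ER sensor, was 1.57-fold higher, Mbtps2, of a protease that cleaves ATF6, 1.40-fold (not called with quantile normalization or with replicates 1 and 3 only), and P4hb, a disulphide isomerase gene, 1.37-fold.

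ER-associated degradation genes were called in 1 direction on the deposited scale, 0 higher and 4 lower of 24 tested, with a median of -0.16, and 2 higher and 13 lower under the block; with equal totals the calls were 7 higher and 2 lower. These 4 of 24 do not exceed the 20.6% of all genes called lower. The 13 of 24 under the block exceed the 29.7% of all genes called lower under it, without a test of the list. The called genes included the glycanase gene Ngly1 (2.09-fold lower) and Herpud2 (1.43-fold lower). Ngly1 was called lower on every scale, and Herpud2 was not called with equal totals. For contrast, of 13 tested cytosolic heat shock genes 3 were higher and 2 lower, and with equal totals 10 were higher and 0 lower. The higher genes were the cochaperone gene Bag3 at 3.12-fold, Hspa8 at 1.47-fold and the regulator gene Hsf1 at 1.36-fold. The cochaperone genes Dnaja1 (1.40-fold) and Dnajb1 (1.39-fold) were lower, and neither was called with equal totals.

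**Figure D4:**
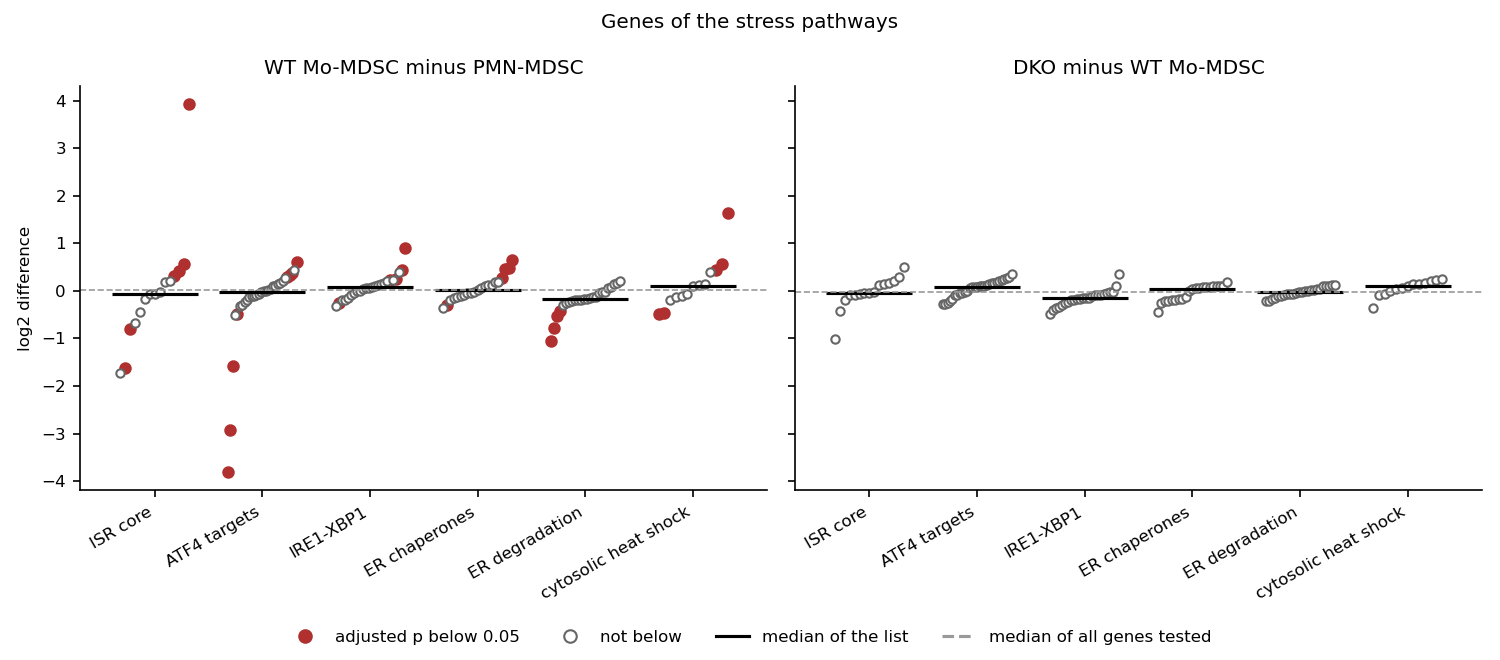
Log2 difference (vertical axis) of every tested gene of 6 pathway lists in both comparisons, with filled points at adjusted p below 0.05, black lines at list medians and a dashed line at the median of all genes. Filled points lie on both sides of 0 on the left, from -3.80 for Slc7a11 to 3.92 for Nupr1, and none is filled on the right.

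Between genotypes no gene of these 6 lists was called in limma. The IRE1-XBP1 list had 22 of 24 genes below 0, with a median of -0.16 against -0.02 for all genes, and 6 of them had p16/p21-DKO values wholly below WT, with 1 more wholly above, against 20.8% of all genes with groups that did not overlap; with equal totals 13 of 24 were below 0 and the list median was near 0, at -0.00082. Sec61b, of the translocation channel, had the smallest unadjusted p of this list, with a log2 difference of -0.48 (adjusted p = 0.175), followed by the vesicle coat gene Sec24d with 0.35 (adjusted p = 0.187). In the core list the values were -1.02 for Nupr1 (adjusted p = 0.151) and -0.42 for Atf3 (0.213), both with groups that did not overlap. Other lists gave -0.27 for Gdf15 and -0.28 for Psat1 among ATF4 targets, -0.45 for Ero1l and -0.25 for Ppib among chaperones, -0.21 for Edem1 and -0.22 for Edem2 in degradation, and -0.37 for Bag3 and 0.25 for Hsp90aa1 in heat shock. Medians of the other 5 lists lay between -0.03 and 0.10, and between 0.12 and 0.26 with equal totals.

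Slc7a11 failed the filter in the genotype comparison, and its values are given because they were seen to differ: 0.38, 0.24 and 0.37 FPKM in WT and 1.22, 1.26 and 0.98 FPKM in p16/p21-DKO Mo-MDSCs. It was far below PMN-MDSCs in both.

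Markers of other cells and of handling moved with some of these values. The 7 immediate-early genes, which respond within minutes to cell handling, summed to values from 1281 to 1346 FPKM in PMN-MDSCs, from 362 to 441 FPKM in WT Mo-MDSCs and from 248 to 286 FPKM in p16/p21-DKO Mo-MDSCs, in the direction of Ddit3 and Chac1 between the subsets. The 5 red-pulp macrophage markers, none at 0, also separated the subsets in that direction, from 4926 to 5830 FPKM in PMN-MDSCs against 3049 to 3911 FPKM in WT Mo-MDSCs, and ranged from 3249 to 5004 FPKM in p16/p21-DKO Mo-MDSCs. The part of handling or of macrophages in the Ddit3 and Chac1 differences was not tested. The 8 plasma-cell and B-cell markers, none of them at 0 in any sample, summed to values from 2730 to 4349 FPKM in PMN-MDSCs, from 1835 to 2923 FPKM in WT Mo-MDSCs and from 1981 to 2271 FPKM in p16/p21-DKO Mo-MDSCs. Igj, which encodes the immunoglobulin joining chain of plasma cells, had 944, 1875 and 796 FPKM in WT and 825, 872 and 882 FPKM in p16/p21-DKO Mo-MDSCs. The granulocyte and monocyte sums given above and the immediate-early sums separated the genotypes in the direction of Xbp1. Sums of plasma-cell and B-cell, red-pulp macrophage and erythroid markers overlapped between genotypes. The part of plasma cells, of other cells or of handling in the Xbp1 difference was not tested.

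Replicate 2 differed from the other replicates in all 3 groups for several stress genes. Relative to the mean of replicates 1 and 3 it was higher by 0.55, 0.49 and 0.25 on the log2 scale for Ddit3 in PMN-MDSCs, WT Mo-MDSCs and p16/p21-DKO Mo-MDSCs. Asns was higher by 0.63, 0.98 and 0.57, Trib3 by 0.63, 2.64 and 1.44, and Xbp1 by 0.35, 0.20 and 0.15. Hspa5 moved by 0.02 or less in each group. Among genes picked after their values were seen, Atf5, Ppp1r15a, Creld2 and Derl3, all ER or integrated stress genes, also had replicate 2 highest in each group. So did the plasma-cell gene Sdc1 and the erythroid genes Klf1 and Alas2. Other plasma-cell and B-cell genes did not do so in each group: Igj and Tnfrsf17 were highest in replicate 2 in 2 groups and Cd79a in 0, and the summed markers of these cells were lowest in replicate 2 of p16/p21-DKO Mo-MDSCs. The summed erythroid markers were highest in replicate 2 of each group, reaching 2899 FPKM, with only Hba-a2 of these 5 listed at 0 in some samples. The part of these cells in the replicate difference was not tested. The share of all genes with replicate 2 highest in each group was not counted. With replicates 1 and 3 only, Ddit3 (-1.60), Chac1 (-2.97) and Trib3 (-2.39) were called lower in WT Mo-MDSCs, and Hspa5 (-0.30, limma adjusted p = 0.119) was not.

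**Figure D5:**
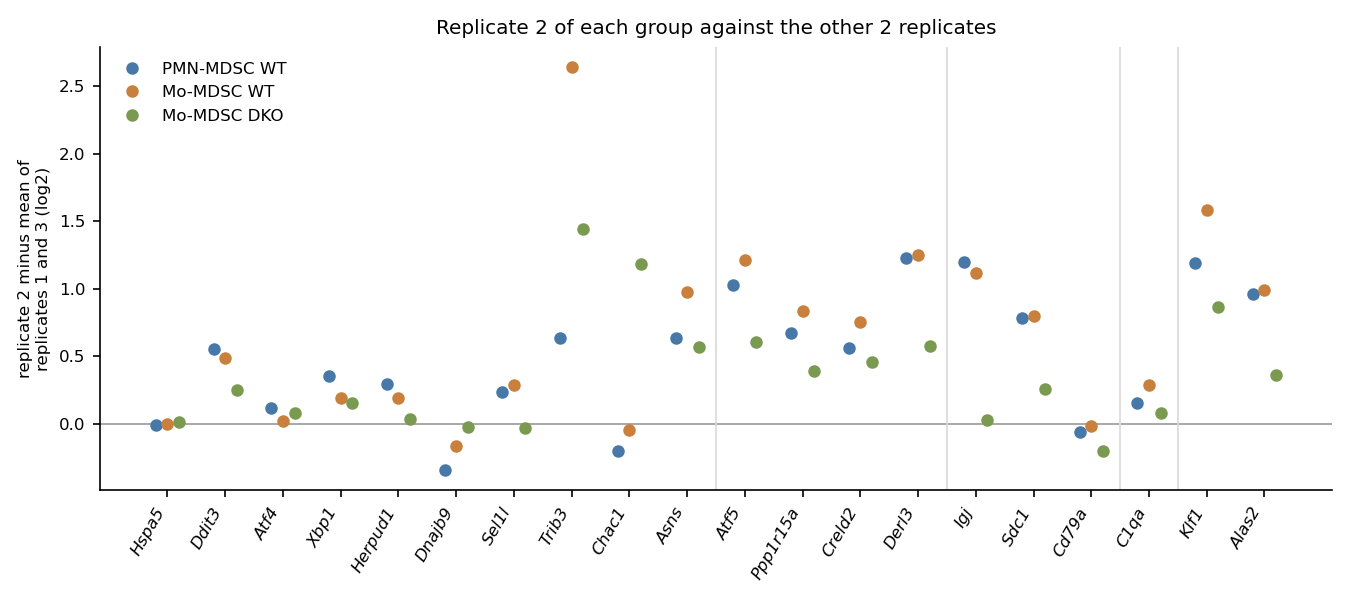
Replicate 2 minus the mean of replicates 1 and 3 on the log2 scale (vertical axis) in each of the 3 groups, for the members, 4 further stress genes and markers of plasma and B cells, macrophages and erythroid cells, separated by vertical lines. Trib3, Asns, Ddit3 and Xbp1 lie above 0 in every group, as do Atf4, Herpud1, Sdc1, Klf1 and Alas2. Hspa5 lies at 0, and Dnajb9 lies below 0 in every group.

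The genes whose profiles over the 9 samples were most like those of Hspa5, Xbp1 and Ddit3 were found among 11519 genes by the root mean square difference of centred log2 values. For Hspa5 these were Suz12 (0.042), Scaf8 (0.044) and Alkbh5 (0.046), against a median of 0.27 over all genes. Manf, an ER stress-induced secreted protein gene, was among the 3 nearest Xbp1 at 0.093, beside BC017612 (0.067) and Klf11 (0.094). The 3 nearest Ddit3 were Wdr92 at 0.14 and Slpi and Aplf at 0.18. The median over all genes was 0.33 for Xbp1 and 0.82 for Ddit3, so these distances are not on an equal footing. Wdr92 had 41.7, 63.1 and 58.8 FPKM in PMN-MDSCs and 14.8 to 18.1 FPKM in WT Mo-MDSCs.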

How the data were processed

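The authors purified splenic MDSCs, made stranded mRNA libraries and sequenced 75-base single-end reads. Per the labels and methods, reads were mapped to mm10 with TopHat2 2.0.13, Bowtie2 2.2.3 and SAMtools 0.1.19, and FPKM values from Cuffnorm 2.2.1 were deposited per gene symbol for each sample. The gene annotation and library scaling are not given in the sources used here. Relative depth, from the steps of low values, ranged from 0.809 to 1.31. Identical libraries were not found.

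FPKM + 0.1 was log2 transformed. Genes that reached 1 FPKM in 3 or more of 6 samples were fitted with limma 3.58.1 (R 4.3.3; eBayes with trend, no covariates), with Benjamini-Hochberg adjustment over all genes tested and calls at adjusted p below 0.05. Single genes were tested by exact two-sided permutation. The script was tested on simulated data. Python 3.11.15 and pandas 2.3.3 were used. The members and lists were chosen with earlier results of these data known. All members are named; from each list, up to 3 highest and 3 lowest called genes between subsets and the 2 smallest unadjusted p-values between genotypes; and the 3 most alike genes. Some genes that the rule names are not reported here.

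Same-numbered WT Mo-MDSC and PMN-MDSC samples deviated together (correlations across genes of 0.29, 0.48 and 0.20), and the replicate block is given where it changed a call. Alternatives were other pseudocounts, filters, scalings, replicate subsets, fits and thresholds. Promoters are from RefSeq, gene positions and overlaps from GENCODE M21. Vimp, Ly6g, Jchain, Mzb1, Trbc2, Hbb-bs and Hbb-bt were not found under these symbols.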

Additional observations from a re-analysis of the deposited data

How the results depend on the processing

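In WT Mo-MDSCs minus PMN-MDSCs, 3 members were called, 8 with the replicate block and 7 with the block and equal totals (added after seeing the data), and 2 to 3 when each replicate was left out. Ddit3 and Chac1 were called in all of these. With equal totals the log2 differences that changed sign were 0.15 for Hspa5, 0.28 for Atf4, 0.36 for Xbp1, 0.21 for Herpud1, 0.13 for Dnajb9 and 0.42 for Sel1l, with or without the block. With quantile normalization they were 0.15 for Hspa5, 0.18 for Atf4, 0.35 for Xbp1, 0.058 for Herpud1 and 0.11 for Sel1l. Leaving out single replicates moved Sel1l between -0.12 and 0.059 and Xbp1 between -0.17 and 0.035. All genes called were 4492 (52.8% lower), 6584 with the block, 6780 with equal totals (14.1% lower), 9004 with both, 2952 with replicates 2 and 3 only and 2446 at a fold above 2 or below 0.75 with unadjusted p below 0.05.

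Between genotypes 0 members were called under every alternative that uses adjusted p, and 0 by that fold and unadjusted p. The replicate numbers were not taken as pairs here (correlations 0.35, 0.23 and -0.070); the replicate block gave 0 members and 20 genes in all. Signs turned with equal totals for Atf4 (0.12), Herpud1 (0.089), Dnajb9 (0.078) and Sel1l (0.13), and with quantile normalization for Atf4 (0.093), Herpud1 (0.020) and Sel1l (0.020). Replicates 2 and 3 only gave 0.0022 for Atf4 and 0.0026 for Dnajb9, and replicates 1 and 3 only (added later) 0.082 for Sel1l. Leaving out single replicates moved Sel1l between -0.084 and 0.072, Dnajb9 between -0.20 and 0.095 and Chac1 between -0.64 and 0.16. The 29 genes called became 13 without a filter, 51 with all 9 samples in the fit, 0 without moderation, 7 with replicates 2 and 3 only, 13 with replicates 1 and 3 only, 8 to 23 on leaving out a replicate, 127 with the block and equal totals, and 544 by that fold and unadjusted p. The cause of these shifts was not tested. Where every sample had to reach 1 FPKM, Trib3 gave no value in either comparison and Chac1 none between genotypes.

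Reads per gene are unknown, so precision rests on 3 samples a group. At the level of Trib3 and Chac1 in Mo-MDSCs, small differences were not detectable. The library numbers in the labels set replicate 1 of each group apart from replicates 2 and 3, with no batch named; a fit on replicate 1 alone has no residual spread.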
